A study of Mus musculus with 12 samples.

Results

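The enzymes that write and erase modifications on histones were followed in growing mouse oocytes as they acquired meiotic competence. The members were chosen by gene symbol alone, as the genes whose symbols begin with Kdm, Kmt, Setd, Ehmt, Suv39, Suv420, Ezh, Hdac, Sirt, Kat or Prmt followed, where the rule asked for it, by a digit. This gave 76 of the 24562 genes in the count table, and no expression value entered the choice. They comprise 24 lysine methyltransferases and related SET-domain proteins, 18 lysine demethylases, 11 histone deacetylases, 7 sirtuins, 8 acetyltransferases and 8 arginine methyltransferases. Of the 76 members, 74 had enough reads to be tested.

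RNA-Seq was carried out on 12 pools, each of 18 to 45 oocytes from CD-1 mice. The 4 cohorts, with 3 pools each, were taken on postnatal day (PND) 13, on PND 16 from small mice and from large mice, and on PND 40. The cohorts from day 16 are called PND 16 small and PND 16 large. The PND 16 mice were divided by body weight, and the other cohorts were set by age. In all cohorts the oocytes came from antral follicles of ovaries without hormonal stimulation, and cumulus cells were removed mechanically. No cohort carried an engineered allele, and the mice received no treatment. The paper describes collection in medium with milrinone, an inhibitor of phosphodiesterase 3 that keeps oocytes in meiotic arrest. The study groups PND 13 and PND 16 small as oocytes that lack meiotic competence, and PND 16 large and PND 40 as oocytes that have it. Within PND 16 age is the same, and body weight and the competence group move together. All other pairs of cohorts differ in age, and the paper reports that weight rose with age. Where such pairs also differ in competence, these cannot be told apart. The pools of a cohort are described as independent and as drawn from 3 mice. The sources used here do not say whether each pool held the oocytes of 1 mouse, so all p-values measure the spread between pools. In competent vs. non-competent oocytes each group joins cohorts without a cohort term. There the spread between pools includes differences between the cohorts of a group.

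Histone methyltransferases and acetyltransferases add marks to the histone tails, and demethylases and deacetylases remove them. A growing oocyte builds a large store of maternal RNA and sets its DNA methylation while it enlarges. Towards the end of growth transcription falls silent and chromatin condenses around the nucleolus. Kdm1b, which encodes a demethylase of H3K4 (lysine 4 of histone H3), is known to be needed for DNA methylation at maternally imprinted genes. Ehmt2 encodes G9a, the partner of GLP (Ehmt1) in methylation of H3K9.

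Non-competent pools had 17671193 to 24762189 counts in total and competent pools had 23422996 to 27418358. Levels are given as CPM, a gene's counts relative to the total of its pool with TMM scaling, and the members together took 1.10% to 1.26% of the counts of a pool. All 12 oocyte marker genes examined, such as Gdf9 and Zp3, were present, with a summed level of 15295 to 19727 CPM. Follicle cell markers were uneven between pools. The summed level of 14 granulosa and cumulus markers, none of which was at 0, was 415 to 545 CPM in competent pools and 401 to 930 CPM in non-competent pools. It was 749 and 865 CPM in PND 13 replicates 1 and 3 and 930 CPM in PND 16 small replicate 2, against 401 to 545 CPM in the other 9 pools. Serpine2 and Nr5a2 made up much of this sum, with means of 269 and 91.1 CPM at PND 40. The markers did not all spread alike. Within PND 13 Serpine2 was at 199 to 270 CPM, whereas Inha was at 2.34 to 143 CPM and Gja1 at 1.37 to 109 CPM. The sum is therefore no measure of the amount of follicle cell RNA. Of these markers, 2 of 14 (Fshr and Kitl) were called lower in competent oocytes and none higher. Of all genes, 11.2% were called lower and 3.78% higher, so the markers' share is near that of all genes. Of the 12 oocyte markers, 1 (Nlrp5) was called lower. Because the marker sum was uneven between pools, results are also given without the 3 pools in which it was highest. This leaves 1 pool at PND 13, so comparisons with PND 13 then take their spread from the other cohorts and assume that the lone pool varies like them. At PND 16 small 2 pools are left. The precursor ribosomal RNA Rn45s took 0.520% to 0.954% of counts in competent pools and 1.46% to 2.98% in non-competent pools. Its part in the results was not tested. In pools of cells, fewer cells of a type and less RNA per cell cannot be told apart.

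A gene is said to have been called, and to have risen or fallen, at an adjusted p of at most 0.05 (edgeR quasi-likelihood test) with a change of at least 1.5-fold. In competent vs. non-competent oocytes 13 of 74 members were called, with 12 lower and 1 higher. Among all 13943 genes tested, 15.0% were called, 11.2% lower and 3.78% higher. The members' share, 17.6%, is thus near that of all genes. The median log2 fold change was -0.09 over the members and -0.0046 over all genes tested. Competent and non-competent pools did not overlap for 15 of the 74 members and for 2049 of the 13943 genes. The genes that fell were 5 demethylases (Kdm1b, Kdm4b, Kdm4c, Kdm5a and Kdm5b), 3 lysine methyltransferases (Kmt2a, Ehmt2 and Kmt5c), 2 deacetylases (Hdac3 and Hdac11) and 2 arginine methyltransferases (Prmt6 and Prmt9). Sirt4 was the member called higher. Without the 3 pools of high granulosa marker level, 11 of these 13 were still called. The exceptions were Kmt2a and Sirt4. Of all genes, 10.7% were then called.

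**Figure D1:**
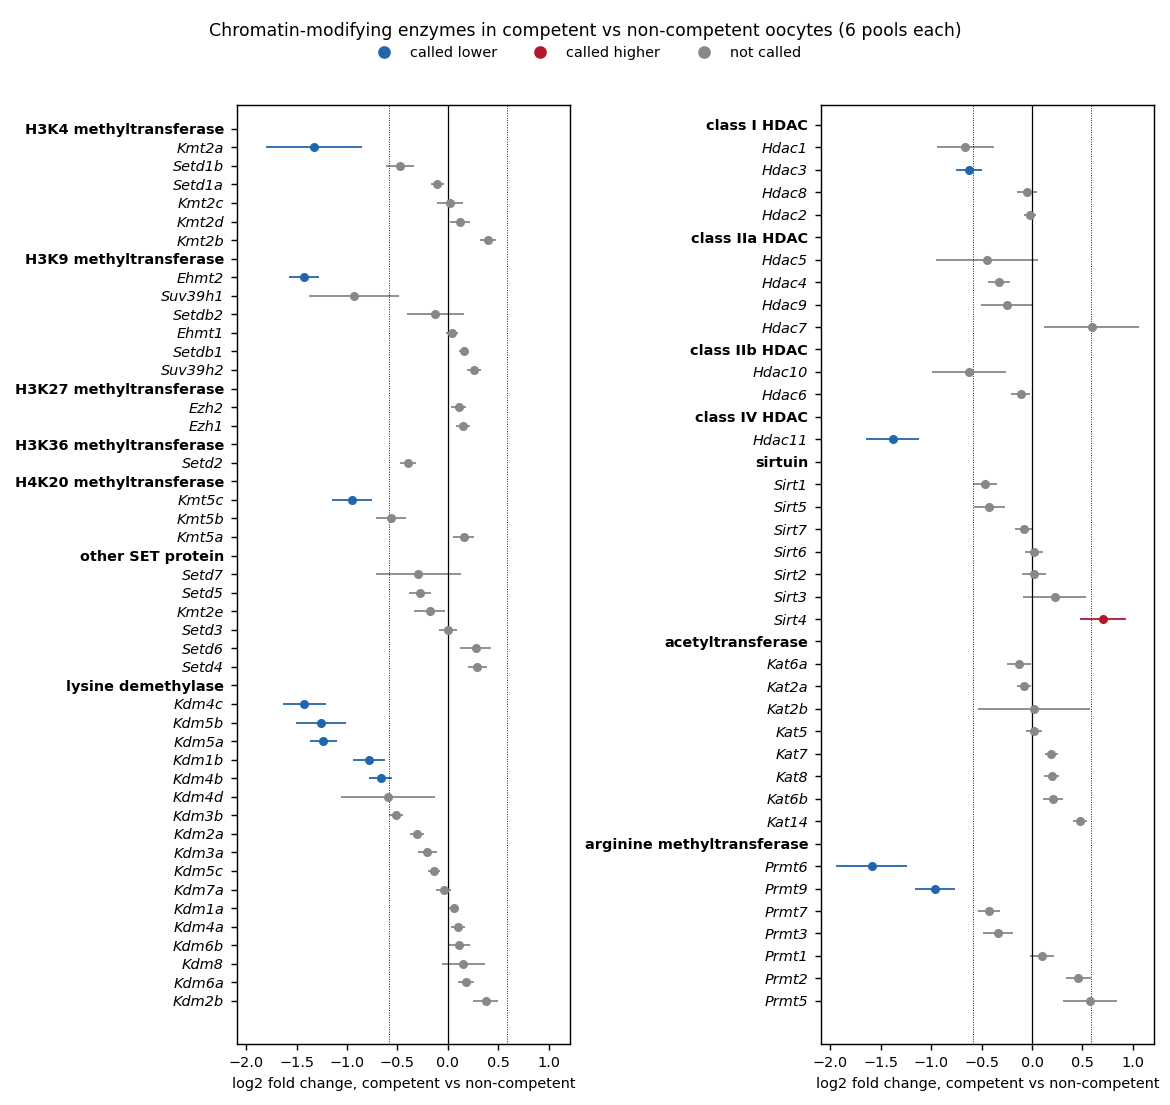
Log2 fold change of the 74 tested enzyme genes in competent (6 pools, of the PND 16 large and PND 40 cohorts) vs. non-competent oocytes (6 pools of the other cohorts), by enzyme class. Bars are ± 1 standard error and dotted lines mark a 1.5-fold change. The 12 genes called lower lie among demethylases, methyltransferases and deacetylases. None of the 8 acetyltransferases was called, where 15.0% of all genes were.

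Sequence upstream of a few members is shown as examples of genes that changed in opposite directions. Kdm1b and Ehmt2 fell with competence, though the drop of Kdm1b was not among the largest. Prmt5, described below, rose at PND 40 and was not called in competent vs. non-competent oocytes. RefSeq promoter sequence (GRCm38.p6) was matched by symbol for 64 of the 76 members. The bases before the transcription start are printed 5′ to 3′ on the gene's strand, less any bases that the GENCODE gene model covers. Capitals mark the GC box GGGCGG and the CCAAT box, each searched on both strands. They lie at chr13:47043249-47043498 (plus strand), chr17:34898224-34898468 (plus strand) and chr14:54517526-54517720 (minus strand).
Kdm1b: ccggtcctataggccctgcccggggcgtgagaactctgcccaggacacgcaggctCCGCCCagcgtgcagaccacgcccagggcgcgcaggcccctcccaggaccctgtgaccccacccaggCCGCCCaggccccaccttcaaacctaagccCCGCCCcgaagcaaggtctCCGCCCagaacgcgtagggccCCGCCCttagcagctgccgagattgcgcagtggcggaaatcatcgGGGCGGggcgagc
Ehmt2: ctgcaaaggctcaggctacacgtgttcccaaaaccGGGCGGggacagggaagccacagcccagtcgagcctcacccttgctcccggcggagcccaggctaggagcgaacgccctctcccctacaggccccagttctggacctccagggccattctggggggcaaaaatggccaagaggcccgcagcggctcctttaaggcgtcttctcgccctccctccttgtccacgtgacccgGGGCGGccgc
Prmt5: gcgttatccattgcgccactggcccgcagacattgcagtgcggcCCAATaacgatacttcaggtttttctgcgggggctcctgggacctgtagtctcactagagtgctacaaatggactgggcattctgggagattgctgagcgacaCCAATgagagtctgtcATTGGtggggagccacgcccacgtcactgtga

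The Kdm1b sequence held 6 GC boxes and no CCAAT box, with 22 CpG dinucleotides in 250 bases. The Ehmt2 sequence held 2 GC boxes and no CCAAT box, and the Prmt5 sequence held 3 CCAAT boxes and no GC box. In the 250 bases before the start, GC boxes were found for 57.8% of the 64 members with a sequence and for 32.9% of all 27025 genes in the promoter table. CCAAT boxes were found for 45.3% of the members and 34.5% of all genes. Of the 12 members called lower in competent oocytes 9 had a sequence, and of those not called 52 had one. CCAAT boxes stood before 2 of these 9 and 27 of these 52. GC boxes stood before 5 of the 9 (55.6%) and 31 of the 52 (59.6%). These counts describe the letters in the window and were not tested.

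Of the 17 lysine demethylases tested, 5 were called in competent vs. non-competent oocytes, all lower, where 11.2% of all genes were called lower. Their median log2 fold change was -0.20. Kdm1b (chromosome 13, 47043499 to 47085279 on GRCm38) was the most abundant demethylase per kilobase of transcript, at 174 CPM per kb over the 12 pools. Its level was 1132 CPM, 1128 CPM and 1139 CPM at PND 13 and 1207 CPM, 872 CPM and 1094 CPM in PND 16 small. It was 754 CPM, 838 CPM and 795 CPM in PND 16 large and 471 CPM, 486 CPM and 470 CPM at PND 40. Every competent pool was below every non-competent pool, and every PND 40 pool was below every PND 16 large pool. Between these last 2 cohorts the pools did not overlap for 33 of the 74 members and 5473 of the 13943 genes tested. Kdm1b fell in competent vs. non-competent oocytes by 0.79 on the log2 scale (SE 0.16, adjusted p = 0.00222), and by 0.84 without the 3 pools of high granulosa marker level. It fell again between the competent cohorts, by 0.74 from PND 16 large to PND 40 (SE 0.09, adjusted p = 0.00108). On the opposite strand Kdm1b shares exon bases with Dek, and whether reads were counted by strand is not given in the sources used here.

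Kdm5a and Kdm5b encode demethylases of trimethylated H3K4. Kdm5a (chromosome 6, 120364124 to 120444574) was at 43.8 CPM, 29.8 CPM and 50.8 CPM at PND 13 and at 42.2 CPM, 37.7 CPM and 41.3 CPM in PND 16 small. It was at 18.0 CPM, 16.8 CPM and 22.5 CPM in PND 16 large and at 17.3 CPM, 13.3 CPM and 16.3 CPM at PND 40. The competent and non-competent pools did not overlap, and the level fell by 1.24 on the log2 scale (SE 0.14, adjusted p = 3.62e-05). Within PND 16 alone Kdm5a fell from small to large mice by 1.08 (SE 0.18, adjusted p = 0.00341), and this was called also without the 3 pools of high granulosa marker level, at -1.12.

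Kdm5b (chromosome 1, 134560171 to 134635285) was at 18.1 CPM, 7.46 CPM and 19.6 CPM at PND 13 and at 6.51 CPM, 12.2 CPM and 10.4 CPM in PND 16 small. The 6 competent pools lay between 4.46 CPM and 5.85 CPM, below all non-competent pools, and Kdm5b fell by 1.26 (SE 0.25, adjusted p = 0.00171). The highest levels were in the 3 pools of high granulosa marker level. Without them Kdm5b was still called in competent oocytes, at -0.65 (SE 0.19, adjusted p = 0.0358), whereas PND 40 vs. PND 13, with 1 PND 13 pool left (7.46 CPM), moved from -1.49 to -0.48 and was no longer called. The spread of that lone pool was taken from the other cohorts.

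Kdm4b and Kdm4c encode demethylases of H3K9 and H3K36. Kdm4c (chromosome 4, 74242497 to 74405860) was at 5.54 CPM, 5.55 CPM and 6.88 CPM at PND 13 and at 6.61 CPM, 5.55 CPM and 6.23 CPM in PND 16 small. It was at 2.54 CPM, 2.49 CPM and 2.31 CPM in PND 16 large and at 1.93 CPM, 3.07 CPM and 1.21 CPM at PND 40. The groups did not overlap, and Kdm4c fell by 1.42 on the log2 scale (SE 0.21, adjusted p = 0.000262). Its drop within PND 16, -1.32 (SE 0.30, adjusted p = 0.0136), was not called when PND 16 large replicate 1 or replicate 2 was left out, although the value stayed between -1.39 and -1.26 over all 6 fits that left out 1 pool. Kdm4b (chromosome 17, 56326062 to 56402870) was between 26.1 CPM and 41.5 CPM in non-competent pools and between 19.3 CPM and 24.9 CPM in competent pools. It fell by 0.67 (SE 0.11, adjusted p = 0.000631).

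Kdm3b, an H3K9 demethylase, fell by 0.60 from PND 13 to PND 40 (SE 0.09, adjusted p = 0.000316) and was at -0.52 in competent vs. non-competent oocytes, under the fold criterion. Kdm2b, which encodes the CpG-binding demethylase of H3K36 that recruits Polycomb complexes, was at 605 CPM, 617 CPM and 456 CPM at PND 13 and at 889 CPM, 833 CPM and 858 CPM at PND 40. It rose by 0.62 between those ages (SE 0.16, adjusted p = 0.0104), and the call was lost with scaling by total count, without PND 13 replicate 3 (0.49) and without the 3 pools of high granulosa marker level (0.48, with 1 PND 13 pool left). The H3K27 demethylases Kdm6a and Kdm6b were abundant, at 81.5 CPM and 70.7 CPM per kb, and neither was called in any comparison. Their log2 fold changes in competent oocytes were 0.18 (SE 0.08) and 0.11 (SE 0.10). Y-linked Kdm5d was read at 0 to 0.237 CPM and failed the filter.

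**Figure D2:**
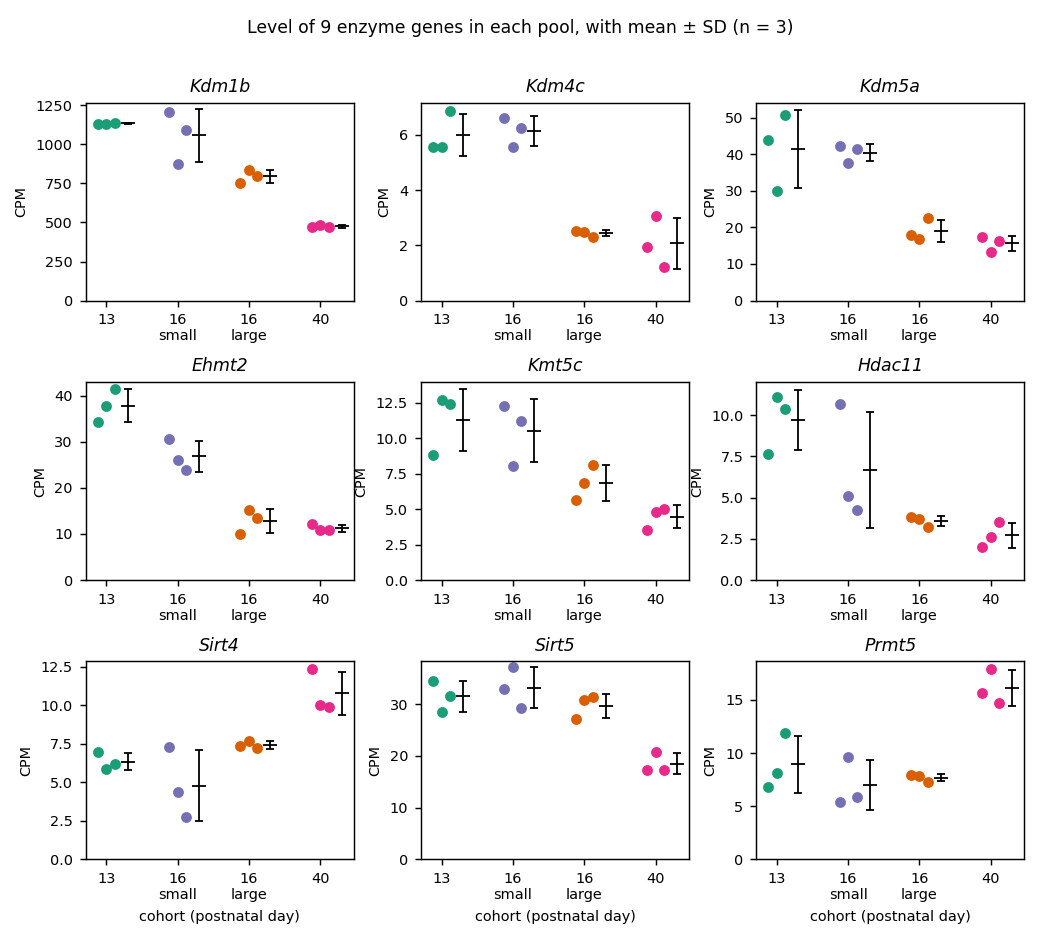
CPM of 9 enzyme genes in each of the 12 pools, a panel for each gene, the cohort on the horizontal axis, points for pools and bars for the mean ± SD of 3 pools. Kdm4c, Kdm5a and Ehmt2 step down between the non-competent and competent cohorts, Kdm1b drops again to 470 to 486 CPM at PND 40, and Prmt5 and Sirt4 are highest at PND 40.

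Of the 6 H3K9 methyltransferases, 1 was called lower in competent vs. non-competent oocytes, where 11.2% of all genes were called lower. Ehmt2 (chromosome 17, 34898469 to 34914052) was at 34.3 CPM, 37.8 CPM and 41.4 CPM at PND 13 and at 30.7 CPM, 26.0 CPM and 24.0 CPM in PND 16 small. It was at 9.90 CPM, 15.2 CPM and 13.4 CPM in PND 16 large and at 12.1 CPM, 10.8 CPM and 10.8 CPM at PND 40. The pools of the groups did not overlap. Ehmt2 fell by 1.43 on the log2 scale (SE 0.15, adjusted p = 2.68e-05), and by 1.07 from PND 16 small to PND 16 large (SE 0.16, adjusted p = 0.00224). The values without the 3 pools of high granulosa marker level were -1.35 and -1.09, both still called.

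Its partner Ehmt1 was between 102 CPM and 121 CPM in all pools and was at 0.04 (SE 0.06, adjusted p = 0.608). Setdb1, which methylates H3K9 at silenced retrotransposons, was the most abundant of the class at 112 CPM per kb. All competent pools (515 to 573 CPM) were above all non-competent pools (481 to 504 CPM), and the log2 difference of 0.16 (SE 0.05, adjusted p = 0.022) was under the fold criterion. Suv39h2 stood at 0.26 (SE 0.07). Suv39h1 was read at 0.632 to 4.27 CPM and Setdb2 at 1.30 to 5.20 CPM, with neither called.

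Among H3K4 methyltransferases, 1 of 6 was called lower in competent vs. non-competent oocytes, where 11.2% of all genes were called lower. Kmt2a (MLL1; chromosome 9, 44803355 to 44881296) was at 12.7 CPM, 4.22 CPM and 16.2 CPM at PND 13 and at 1.80 CPM, 7.58 CPM and 2.43 CPM in PND 16 small. Competent pools held 1.75 CPM to 4.30 CPM and overlapped the non-competent pools. The log2 fold change was -1.33 (SE 0.48, adjusted p = 0.0485). The 3 highest levels were in the 3 pools of high granulosa marker level, and without them the value was 0.08 (SE 0.35, adjusted p = 0.905). Leaving out single pools also ended the call in 9 of 12 cases, among them those without PND 13 replicate 1, PND 13 replicate 3 or PND 16 small replicate 2, with values from -1.53 to -0.95. The part of the granulosa marker level in the Kmt2a result was otherwise not tested.

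**Figure D3:**
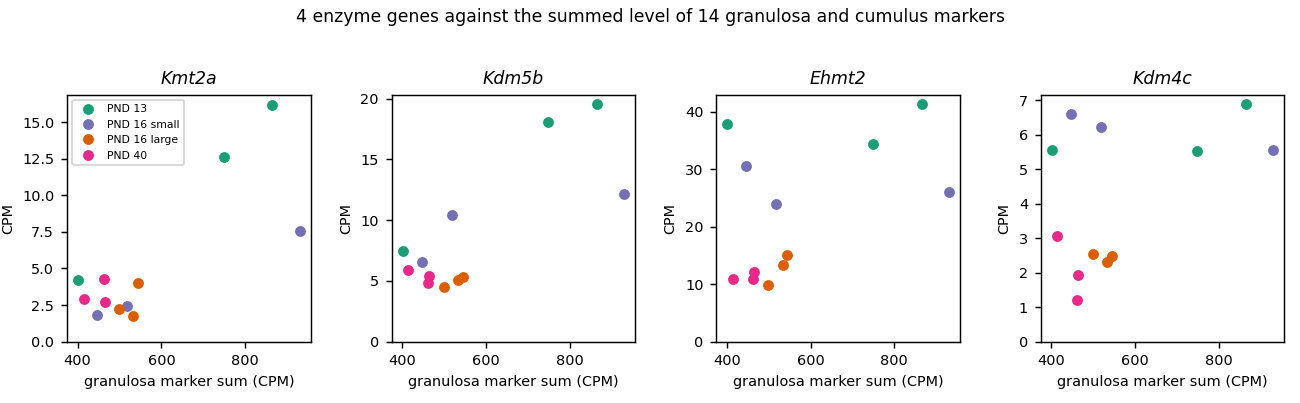
CPM of Kmt2a, Kdm5b, Ehmt2 and Kdm4c in each pool (vertical axes, from 0) against the summed CPM of 14 granulosa and cumulus marker genes (horizontal axes), with colours for cohorts. For Kmt2a the 3 highest points (7.58 to 16.2 CPM) are the 3 pools with 749 to 930 CPM of markers, whereas for Ehmt2 and Kdm4c the non-competent pools are high on both sides of the gap.

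The paralogues Kmt2c and Kmt2d, which place single methyl groups at enhancers, were more abundant per length than the rest of the H3K4 class, at 85.2 CPM and 63.3 CPM per kb, and neither was called. Kmt2b, known for H3K4 trimethylation in oocytes, was at 248 to 281 CPM in non-competent pools and at 307 to 418 CPM in competent pools. The groups did not overlap, and the log2 difference was 0.40 (SE 0.08, adjusted p = 0.00156), which is under the fold criterion. Setd1b was at 176 CPM, 169 CPM and 185 CPM at PND 40 and at 239 CPM, 323 CPM and 368 CPM in PND 16 small. It fell by 0.81 between these (SE 0.15, adjusted p = 0.0022).

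H4K20 methylation is laid down first by Kmt5a and then extended by Kmt5b and Kmt5c. Kmt5c (chromosome 7, 4740115 to 4747514) was at 8.79 CPM, 12.7 CPM and 12.4 CPM at PND 13 and at 12.3 CPM, 8.06 CPM and 11.2 CPM in PND 16 small. It was at 5.60 CPM, 6.83 CPM and 8.08 CPM in PND 16 large and at 3.52 CPM, 4.78 CPM and 5.03 CPM at PND 40. The highest PND 16 large pool reached the lowest PND 16 small pool, and the PND 40 pools were below all others. Kmt5c fell in competent oocytes by 0.95 (SE 0.20, adjusted p = 0.00259). Kmt5b fell by 0.93 from PND 16 small to PND 40 (SE 0.16, adjusted p = 0.000976). Kmt5a stood at 0.16 (SE 0.10) and was not called.

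The Polycomb enzyme Ezh2, which methylates H3K27, was the most abundant of all members per kilobase, at 221 CPM per kb. Its pools ranged from 508 CPM to 712 CPM. Neither Ezh2 (0.11, SE 0.08) nor Ezh1 (0.15, SE 0.07) was called in any comparison. Setd2, which trimethylates H3K36 in transcribed genes, was at 435 to 630 CPM in non-competent pools and 352 to 398 CPM in competent pools without overlap, a log2 difference of -0.39 (SE 0.08, adjusted p = 0.00218) under the fold criterion. None of the 6 other SET proteins (Kmt2e and Setd3 to Setd7) was called in any comparison. Of all genes, 15.0% were called in competent vs. non-competent oocytes. Setd4, at 41.0 CPM per kb, was the most abundant of them and stood at 0.29 (SE 0.10, adjusted p = 0.0346).

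Of the 11 classical deacetylases 2 fell in competent oocytes, where 11.2% of all genes fell. Hdac3 (chromosome 18, 37935844 to 37955016), the catalytic subunit of the NCoR corepressor complex, was between 22.1 CPM and 31.0 CPM in non-competent pools. It was at 19.5 CPM, 21.9 CPM and 20.6 CPM in PND 16 large and at 14.5 CPM, 16.3 CPM and 14.3 CPM at PND 40. The groups were separated by the gap between 21.9 CPM and 22.1 CPM. Hdac3 fell by 0.62 (SE 0.13, adjusted p = 0.00228), and the value dropped under the fold criterion without PND 40 replicate 1, PND 40 replicate 3 or PND 16 small replicate 1, with a smallest value of -0.56.

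Hdac11 (chromosome 6, 91156665 to 91174692), the class IV deacetylase, was at 7.64 CPM, 11.1 CPM and 10.4 CPM at PND 13 and at 10.7 CPM, 5.07 CPM and 4.27 CPM in PND 16 small. Competent pools were all lower, at 2.02 CPM to 3.80 CPM. The log2 fold change was -1.38 (SE 0.26, adjusted p = 0.00128). Between PND 16 small and PND 40 it was -1.30, and this call was lost without PND 40 replicate 1 (-0.78). Opposite-strand transcripts Gm14573 and Gm44002 overlap its exons.

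Among class I enzymes Hdac2 dominated, at 26.6 CPM per kb against 0.826 CPM per kb for Hdac1. Hdac2 was at 77.0 to 93.3 CPM in all pools and was not called in any comparison. Hdac1 fell by 1.13 from PND 13 to PND 40 (SE 0.38, adjusted p = 0.0371), at levels of 2.03 to 2.62 CPM against 0.735 to 1.27 CPM. That call was lost without the 3 pools of high granulosa marker level, at -0.94 (SE 0.53, adjusted p = 0.275), a value that rests on 1 PND 13 pool and on the spread of the other cohorts. Class IIa enzymes (Hdac4, Hdac5, Hdac7 and Hdac9) and class IIb enzymes (Hdac6 and Hdac10) were not called in any comparison. Hdac4 was lower in every competent pool (25.1 to 27.5 CPM against 28.04 to 42.0 CPM), with a log2 difference of -0.33 (SE 0.11, adjusted p = 0.0291). Hdac7 had the largest value of its class, 0.59 (SE 0.47), at 0.199 to 1.501 CPM.

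Sirtuins use NAD to remove acyl groups, and Sirt3, Sirt4 and Sirt5 act in mitochondria. Sirt4 (chromosome 5, 115478010 to 115484725) was at 6.97 CPM, 5.86 CPM and 6.22 CPM at PND 13 and at 7.29 CPM, 4.36 CPM and 2.73 CPM in PND 16 small. It was at 7.36 CPM, 7.69 CPM and 7.21 CPM in PND 16 large and at 12.4 CPM, 10.03 CPM and 9.92 CPM at PND 40. PND 40 pools were above all others, whereas PND 16 large pools met the top of PND 16 small. Sirt4 rose in competent oocytes by 0.70 (SE 0.23, adjusted p = 0.0291). The call was lost without the 3 pools of high granulosa marker level (0.78, adjusted p = 0.0877) and when single pools were left out in 5 of 12 cases, which were those without any PND 40 pool or PND 16 small replicate 2 or 3 (lowest value 0.55). From PND 16 small to PND 40 it rose by 1.16 (SE 0.28, adjusted p = 0.00697), and this was called in all 6 fits that left out 1 pool.

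Sirt5, which removes succinyl and malonyl groups, moved the opposite way. It was at 34.5 CPM, 28.5 CPM and 31.5 CPM at PND 13, at 33.0 CPM, 37.2 CPM and 29.2 CPM in PND 16 small and at 27.04 CPM, 30.7 CPM and 31.4 CPM in PND 16 large. At PND 40 it was at 17.4 CPM, 20.8 CPM and 17.3 CPM, below every other pool. Sirt5 fell by 0.68 from PND 16 large to PND 40 (SE 0.13, adjusted p = 0.00799). Sirt1, the most abundant sirtuin at 35.9 CPM per kb, fell by 0.71 from PND 13 to PND 16 large (SE 0.15, adjusted p = 0.00554) and was at 139 to 153 CPM at PND 40. In competent vs. non-competent oocytes it stood at -0.47, and at -0.59 (adjusted p = 0.00561), where it was called, without the 3 pools of high granulosa marker level. Sirt2, Sirt3, Sirt6 and Sirt7 were not called in any comparison.

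None of the 8 acetyltransferases among the members was called in any comparison. In competent vs. non-competent oocytes 15.0% of all genes were called, and 8 genes are too few to set 0 apart from that share. Their median log2 fold change in competent oocytes was 0.11. Kat14, a subunit of the ATAC complex, was the most abundant at 122 CPM per kb. It was at 362 to 447 CPM in non-competent pools and at 485 to 611 CPM in competent pools. The groups did not overlap, and the log2 difference of 0.48 (SE 0.07, adjusted p = 0.000214) was under the fold criterion. Without the 3 pools of high granulosa marker level Kat14 was called in PND 40 vs. PND 13 (0.59, with 1 PND 13 pool) and in PND 40 vs. PND 16 small (0.62). It shares exon bases with Pet117 on the same strand, and reads in those bases cannot be told apart by gene. Kat2b was read at 0.119 to 3.11 CPM, while its paralogue Kat2a was at 57.1 to 71.0 CPM in all pools.

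Arginine methyltransferases split by direction. Prmt9 (chromosome 8, 77549397 to 77581338) was at 16.3 CPM, 17.5 CPM and 15.8 CPM at PND 13 and at 17.5 CPM, 8.82 CPM and 8.19 CPM in PND 16 small. Competent pools were at 6.14 CPM to 8.44 CPM, and 1 PND 16 small pool lay within their range. Prmt9 fell by 0.96 (SE 0.20, adjusted p = 0.00259). Prmt6, which methylates arginine 2 of histone H3, fell by 1.59 (SE 0.35, adjusted p = 0.00383) from 0.777 to 3.26 CPM in non-competent pools to 0.395 to 0.818 CPM in competent pools. It overlaps C130013H08Rik on the opposite strand. Its calls against PND 13 in both competent cohorts (PND 40 and PND 16 large) were lost without the 3 pools of high granulosa marker level, at -1.29 and -1.41 with 1 PND 13 pool left.

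Prmt5 (chromosome 14, 54507187 to 54517525), the main symmetric dimethyltransferase, was at 6.78 CPM, 8.13 CPM and 11.9 CPM at PND 13 and at 5.44 CPM, 9.67 CPM and 5.87 CPM in PND 16 small. It was at 7.94 CPM, 7.81 CPM and 7.32 CPM in PND 16 large and at 15.7 CPM, 18.0 CPM and 14.7 CPM at PND 40. Every PND 40 pool was above every other pool, and the other cohorts overlapped. Prmt5 rose by 1.07 from PND 16 large to PND 40 (SE 0.24, adjusted p = 0.0199), by 1.20 from PND 16 small and by 0.85 from PND 13. The first of these was no longer called in any of the 6 fits that left out 1 pool, although its value stayed between 0.98 and 1.13. The rise from PND 13 was lost without PND 13 replicate 1, PND 13 replicate 2 or PND 40 replicate 2, with a lowest value of 0.69. Prmt2 rose by 0.66 from PND 16 small to PND 40 (SE 0.17, adjusted p = 0.00911), a call lost without PND 16 small replicate 3 (0.49). Prmt8 was read in 1 of 12 pools and was not tested.

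The cohorts were next compared in pairs. Comparisons that share a cohort share its pools, so their values stand side by side and are not independent. PND 40 vs. PND 13 called 21 of 74 members (28.4%), 18 lower and 3 higher, where 18.9% of all genes tested were called, 12.6% lower and 6.31% higher. The largest drops were Hdac11 (-1.84, SE 0.34), Ehmt2 (-1.75, SE 0.16), Kmt2a (-1.73, SE 0.58), Prmt6 (-1.63, SE 0.52) and Kdm4c (-1.53, SE 0.30). The genes that rose were Prmt5, Sirt4 (0.76, SE 0.27, adjusted p = 0.0464) and Kdm2b. The Sirt4 call was lost in each of the 6 fits that left out 1 pool, with values from 0.65 to 0.83. Without the 3 pools of high granulosa marker level, which leaves 1 pool at PND 13, 13 members and 10.1% of all genes were called, and 12 of the 13 were among the 21. The 9 calls lost were Kmt2a, Kmt5b, Kdm2b, Kdm3b, Kdm5b, Hdac1, Sirt4, Prmt3 and Prmt6.

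PND 40 vs. PND 16 small called 13 members, 10 lower and 3 higher, where 17.2% of all genes were called, 10.3% lower and 6.89% higher. Kdm4c (-1.57, SE 0.30) and Kdm5a (-1.37, SE 0.18) were lowest, and Prmt5, Sirt4 and Prmt2 were the genes that rose. PND 16 large vs. PND 13 called 11 members, all lower, where 13.3% of all genes were called, 9.80% lower and 3.52% higher. Kmt2a was lowest there (-2.05, SE 0.59), followed by Prmt6 (-1.75, SE 0.53), Kdm5b (-1.60, SE 0.32), Ehmt2 (-1.56, SE 0.16) and Hdac11 (-1.44, SE 0.33). Without the 3 pools of high granulosa marker level, with 1 PND 13 pool left and its spread taken from the other cohorts, 5 members and 7.16% of all genes were called. Kmt2a, Kmt5c, Kdm4c, Kdm5a, Kdm5b and Prmt6 were then not called. Kdm5a stood at -0.64 (adjusted p = 0.0654).

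PND 16 large vs. PND 16 small, which compares oocytes of 1 age, called 3 members, all lower, where 6.19% of all genes were called, 4.76% lower and 1.43% higher. These were Ehmt2, Kdm4c and Kdm5a. The count was 6 without the 3 pools of high granulosa marker level, with Kmt5c (-0.77), Kdm4b (-0.65) and Sirt1 (-0.73) added, where 7.97% of all genes were called. It was 9, with 6 lower and 3 higher, without PND 16 small replicate 1, where 5.67% of all genes were called. PND 40 vs. PND 16 large, both competent, also called 3 members, where 3.66% of all genes were called, 1.32% lower and 2.34% higher. Kdm1b and Sirt5 fell and Prmt5 rose. These comparisons share the PND 16 large pools.

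PND 16 small vs. PND 13, both non-competent, called none of the 74 members by edgeR, where 0.373% of all genes were called, 0.194% lower and 0.179% higher. At an unadjusted p under 0.05 there were 16 members and 2684 of the 13943 genes (19.2%). DESeq2 called 1 member and 2.59% of all genes. Leaving out PND 16 small replicate 1 gave 6 members and 5.7% of all genes. The nearest was Kat6b at 0.39 (SE 0.10, adjusted p = 0.0525). Ehmt2 stood at -0.49 (adjusted p = 0.106) in this comparison, against -1.07 in the step from PND 16 small to PND 16 large.

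**Figure D4:**
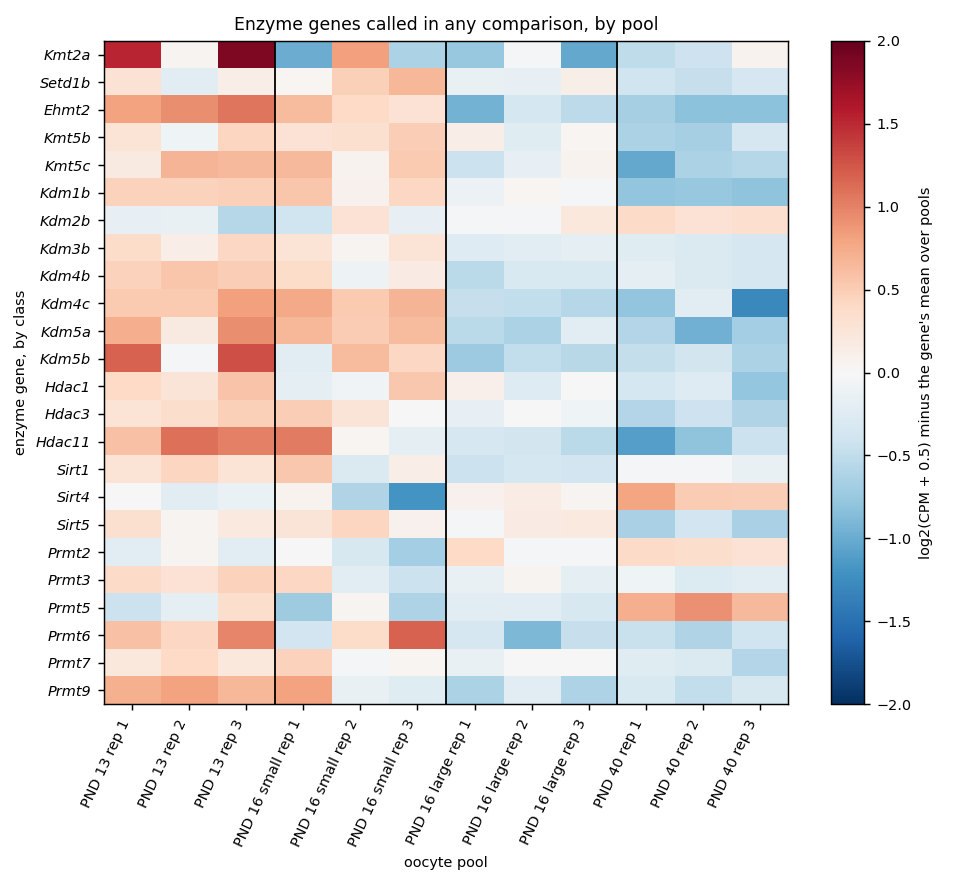
Log2(CPM + 0.5) of the 24 enzyme genes called in any comparison, less each gene's mean over pools, for the 12 pools (columns, black lines between cohorts) and genes in order of class (rows). Most rows turn from red to blue between PND 16 small and PND 16 large, Prmt5 and Sirt4 are deepest red at PND 40, and the colour of Kmt2a varies within PND 13 and PND 16 small.

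Enzymes often occur as paralogues that act on the same residue, and the ratio of their counts within a pool does not depend on scaling. The values are descriptions and were not tested. Ehmt1/Ehmt2 had a mean log2 ratio of 1.53 ± 0.17 (SD, n = 3) at PND 13, 2.06 ± 0.19 in PND 16 small, 3.22 ± 0.35 in PND 16 large and 3.29 ± 0.13 at PND 40. Kdm4a/Kdm4c went from 4.98 ± 0.16 over the 6 non-competent pools to 6.55 ± 0.50 over the 6 competent pools. Both ratios widened between the groups with no overlap. The second gene of each pair was called lower and the first was not called.

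Kdm1a/Kdm1b moved towards balance, from -3.33 ± 0.11 at PND 13 through -3.16 ± 0.26 and -2.71 ± 0.10 to -2.01 ± 0.05 at PND 40. Kdm1a itself was at 103 to 126 CPM in all pools. Kdm2a/Kdm2b went the opposite way, from -2.31 ± 0.26 at PND 13 to -3.25 ± 0.04 at PND 40. Kat6a/Kat6b was between 0.13 and 0.42 in non-competent pools and between -0.17 and -0.03 in competent pools, a shift that is small beside those above. Kdm3a/Kdm3b moved by a like amount, from -2.52 ± 0.14 (-2.69 to -2.37) to -2.21 ± 0.10 (-2.32 to -2.09), also without overlap.

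In some pairs the groups overlapped. Kdm5a/Kdm5b was at 1.82 ± 0.52 in non-competent and 1.74 ± 0.33 in competent pools, and both genes fell. Kdm6a/Kdm6b was at 0.01 ± 0.18 and 0.08 ± 0.14, Ezh1/Ezh2 at -2.79 ± 0.25 and -2.75 ± 0.15, and Kmt2c/Kmt2d at 0.06 ± 0.16 and -0.03 ± 0.07.

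**Figure D5:**
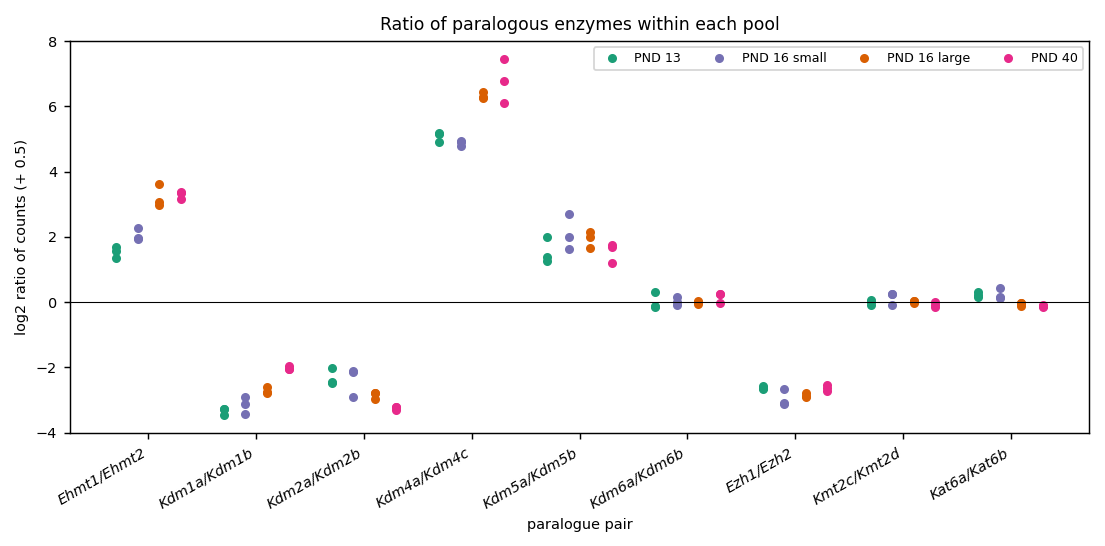
Log2 ratio of the counts (plus 0.5) of 9 paralogue pairs in each pool, with points coloured by cohort. Ehmt1/Ehmt2, Kdm1a/Kdm1b and Kdm4a/Kdm4c are higher in competent than in non-competent pools, and Kdm2a/Kdm2b is lowest at PND 40. For Kdm5a/Kdm5b, Kdm6a/Kdm6b, Ezh1/Ezh2 and Kmt2c/Kmt2d the competent and non-competent pools overlap.

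The enzymes work in complexes, and some carry other names. Of 91 such partner symbols, some of them alternative names of the same gene, 87 were in the count table and 86 were tested. In competent vs. non-competent oocytes 5 of the 86 (5.81%) were called, all lower, against 15.0% of all genes, and the median log2 fold change was 0.07. None of the 9 Polycomb (PRC2) partners, 10 COMPASS subunits or 4 Prmt5 partners was called in this comparison. Nor was any of the 20 acetyltransferase partners and acetyltransferases with other names, such as Ep300.

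Riox1, a JmjC oxygenase, was between 1.71 CPM and 5.53 CPM in non-competent pools and between 0.172 CPM and 1.10 CPM in competent pools. It fell by 2.61 on the log2 scale (SE 0.42, adjusted p = 0.000479). Jmjd1c, a relative of Kdm3a and Kdm3b, fell by 0.84 (SE 0.11, adjusted p = 0.000105), and it, too, did not overlap between groups (60.01 to 97.5 CPM against 40.3 to 51.9 CPM). Of the 19 deacetylase corepressors Rcor3, a CoREST scaffold that binds Kdm1a, fell by 1.62 (SE 0.23, adjusted p = 0.000176), and Mta2, of the NuRD complex, fell by 1.56 (SE 0.24, adjusted p = 0.000318). Prdm9, the H3K4 methyltransferase of meiotic recombination sites, fell by 0.96 (SE 0.25, adjusted p = 0.0106) at 0.796 to 3.38 CPM. The same 5 partner genes were called without the 3 pools of high granulosa marker level.

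PND 40 vs. PND 13 called 8 of the 86 partners (9.30%), 5 lower and 3 higher, where 18.9% of all genes were called, 12.6% lower and 6.31% higher. The genes that rose were the H3K36 methyltransferase Nsd1 (0.81, SE 0.09), the NuRD subunit Gatad2b (0.78, SE 0.08) and the H3K9 methyltransferase Prdm2 (0.66, SE 0.09). Nsd1 was at 507 to 619 CPM at PND 13 and at 970 to 1030 CPM at PND 40, without overlap. The pools of these cohorts did not overlap for 7086 of the 13943 genes tested. PND 40 vs. PND 16 small called 11 partners (12.8%), 9 lower and 2 higher, where 17.2% of all genes were called, 10.3% lower and 6.89% higher. Eed, the PRC2 subunit that binds methylated H3K27, rose there by 0.60 (SE 0.09, adjusted p = 0.00029), whereas its catalytic partner Ezh2 was not called. The acetyltransferase p300 (Ep300) fell by 0.78 (SE 0.14, adjusted p = 0.00123), from 314 to 481 CPM in PND 16 small to 221 to 226 CPM at PND 40.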

How the data were processed

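The authors deposited raw counts, reads per gene with no normalization, for each of 12 pools. Libraries were directional and depleted of ribosomal RNA. The submitters' processing notes name FastQC, STAR, HTSeq, DESeq2, HOMER and mm10, without versions. Whether counting used strand is not given in the sources used here. Deposited log2 normalized values were not used. All columns of the count table were matched to a sample by its label.

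From the counts, genes were kept with edgeR's filterByExpr (minimum count 10; 13943 of 24562), scaled by TMM and tested by robust quasi-likelihood (R 4.3.3, edgeR 4.0.16, limma 3.58.1), with Benjamini-Hochberg adjustment over all genes tested. The 6 pairwise contrasts share 1 model of 4 cohorts, and a second model held only the groups competent and non-competent. Standard errors are approximations from the F statistic. Depth was 17671193 to 27418358 counts a pool, and reads carry no molecular identifiers, so counting error understates the spread. The procedure was tested on simulated data. Coordinates and transcript lengths are those of GENCODE M21 on GRCm38, matched by symbol for all 76 members. CPM per kb uses those lengths. A log2 ratio of paralogues adds 0.5 to each count.

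Named genes were all members called in competent vs. non-competent, within PND 16, between competent cohorts or between non-competent cohorts, the 5 largest changes per direction in the other comparisons, and in each class the most abundant member and that with the largest change. Paralogue pairs and the partner gene with the largest change per group and direction were added, and other genes were named after their values were seen. Besides the oocyte and granulosa lists, 7 theca and stroma markers summed to 5.14 to 24.9 CPM and 6 endothelial and blood markers to 53.1 to 65.1 CPM, with none called and Hbb-bs and Hba-a1 at 0. The symbol rule for the members used no expression value, but it and the lists were set with earlier results of these data known. Replicate numbers did not pair the pools (18 correlations of deviations from -0.47 to 0.07). Alternatives were DESeq2 1.42.0, other scalings, filters and samples in the fit, no fold criterion, the replicate block, and leaving out each pool. Leaving out the 3 pools of high granulosa marker level was chosen after seeing the data.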

Additional observations from a re-analysis of the deposited data

Results flagged for a closer look

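In the non-competent group of 6 pools, Kdm1b in PND 16 small replicate 2 lay far below the others, at 872 CPM against 1094 to 1207 CPM. On the log2 scale the gap was 0.698 of the group's whole range. This pool also had the highest summed level of granulosa and cumulus markers. In the same group, Kmt2c in PND 16 small replicate 3 lay far above the others, at 1919 CPM against 1010 to 1246 CPM, a gap of 0.674 of the log2 range. That pool had the lowest total count, 17671193. The part of either in the result was not tested. The test was applied to 64 groups of values, and chance alone singles out about 1 group in 20.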

How the results depend on the processing

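The number of enzyme genes called depended on the 1.5-fold criterion. Without it the counts were 30 in competent vs. non-competent oocytes, 36 in PND 40 vs. PND 13, 26 in PND 40 vs. PND 16 small, 24 in PND 16 large vs. PND 13 and 12 within PND 16, where 30.7%, 33.1%, 30.2%, 25.6% and 12.3% of all genes were called. DESeq2 called 8 within PND 16 (8.41% of all genes) and 1 in PND 16 small vs. PND 13 (2.59%). Without the 3 pools of high granulosa marker level the counts were 13 in PND 40 vs. PND 13, 5 in PND 16 large vs. PND 13 and 6 within PND 16. With each pool left out once there were 10 to 14 calls in competent vs. non-competent oocytes, 14 to 22 in PND 40 vs. PND 13, 13 to 19 in PND 40 vs. PND 16 small, 8 to 12 in PND 16 large vs. PND 13, 2 to 9 within PND 16, 2 in each fit of PND 40 vs. PND 16 large and 0 to 6 in PND 16 small vs. PND 13. Of all genes, these fits called, in the same order, 11.9% to 15.6%, 13.6% to 20.4%, 12.9% to 17.8% and 8.06% to 13.5%. For the last 3 comparisons the shares were 2.33% to 7.99%, 1.72% to 2.13% and 0.0281% to 5.7%. With the replicate block the counts, in the order of the report, were 12, 19, 13, 11, 3, 3 and 0. Of all genes, 13.3%, 17.3%, 16%, 11.7%, 5.25%, 2.81% and 0.0717% were then called. The pools share only a number, so the block is no pairing. Under it Kmt2a kept its call in PND 16 large vs. PND 13 and lost its other two. In competent vs. non-competent oocytes the sign turned without the 3 pools for Kmt2a (0.0784), Kmt2c (-0.11) and Hdac2 (0.0252), and with total count scaling for Kmt2c (-0.008). Leaving out single pools gave -0.0453 to 0.1637 for Kmt2c and -0.0624 to 0.0046 for Hdac2. The cause was not tested. Ehmt2, Kmt5c, Kdm1b, Kdm4b, Kdm4c, Kdm5a, Kdm5b, Hdac11, Prmt6 and Prmt9 were called in competent vs. non-competent oocytes under every alternative that tested them and every fit that left out 1 pool. Genes under about 1 CPM, such as Hdac5, Setd7 and Kdm4d, had standard errors of 0.42 to 0.51, so a 1.5-fold change in them was not detectable at this depth.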
